A study of Homo sapiens with 8 samples.

Results

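The genes described here build purine and pyrimidine nucleotides, recover them from free bases and nucleosides, or pass them between the base, nucleoside, monophosphate and triphosphate forms. They were 39 genes listed by name, among 16169 genes present in either of the deposited count tables. The members were 19 genes of synthesis, 8 of salvage, 9 shared by both routes and 3 of breakdown. The knockout table listed all 39, and 38 were in the siRNA table, which had no entry for XDH. A filter on low counts left 38 members for testing in each table. XDH, the oxidase that ends purine breakdown in uric acid, did not pass it in the knockout table, with 3 and 2 counts in Hep3B and 14 and 3 in the knockout libraries.

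The RNA came from Hep3B, a cell line of human liver cancer, in 8 libraries that fell evenly into 4 conditions of 2. The first table held wild-type Hep3B and Hep3B with genotype SOX4 knockout, SOX4 being a transcription factor of the SRY-related family. The second held Hep3B transfected with a control siRNA, called scramble siRNA here as in the study, and Hep3B transfected with STAT6 siRNA, STAT6 being the transcription factor activated by interleukin-4. The study used 2 knockout lines made with CRISPR/Cas9, and its methods name both for the deposited RNA sequencing. The labels do not say which line gave which library. Differences between the 2 knockout libraries therefore cannot be told apart from differences between lines. Nothing in the labels says whether libraries of a condition came from separate cultures, so p-values measure the spread between these libraries only.

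Purine rings are assembled on phosphoribosyl pyrophosphate (PRPP) atom by atom, and some of the ring carbons come from formyl-tetrahydrofolate, at the steps carried out by GART and ATIC. Pyrimidine rings are made first and joined to PRPP afterwards, and thymidylate synthase (TYMS) takes a methyl carbon from methylene-tetrahydrofolate to turn dUMP into dTMP. Salvage enzymes such as HPRT1 and APRT instead attach PRPP to a ready-made base, which costs the cell less energy, and proliferating tumour cells are known to draw on both routes.

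The first step of purine synthesis and a later one are encoded by neighbouring genes that point away from each other. The sequence between them is shown because PPAT and PAICS were both lower in the knockout libraries, though neither passed the test (edgeR). The log2 ratio of PAICS to PPAT within a library was 2.63 and 1.43 in Hep3B against 2.50 and 2.75 in the knockout, which overlapped. Whether the genes change together was not tested. In the tables PPAT lies on the minus strand of chromosome 4 from 56393363 to 56435636 and PAICS on the plus strand from 56435749 to 56461368 (hg38). The PAICS transcript that starts there held 36.6% and 34.9% of the estimated counts of PAICS in Hep3B and 38.1% and 33.9% in the knockout, and one that starts further on, at 56436103, held 59.9% and 63.7% against 58.5% and 63.0%. Of the 3 PAICS start sites in RefSeq on GRCh38.p14, the one at 56435752 is 137 bases from that of PPAT, and the windows reaching 250 bases before and 50 bases after these start sites share 236 bases. The gap between the genes, chr4:56435637-56435748 on the plus strand, is printed first. A CACGTG (E-box) in capitals, chr4:56435780-56435809 on the minus strand, lay 182 bases before the PPAT start site and 40 bases after that PAICS start site.
PPAT to PAICS gap: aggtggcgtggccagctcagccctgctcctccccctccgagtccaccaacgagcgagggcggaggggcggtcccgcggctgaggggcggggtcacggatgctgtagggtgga
PPAT and PAICS E-box: aacggagatttcCACGTGcagcaaatacag

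The other sequences belong to the 3 folate-using members, and capitals mark matches to CACGTG or to 1 of 4 E2F-type octamers (TTTCCCGC, TTTCGCGC, TTTGCCGC, TTTGGCGC), searched on both strands. The GART stretch is chr21:33542159-33542367 on the minus strand, just upstream of the start that the tables give its main transcript and within the span of longer ones. The ATIC sites are chr2:215312001-215312030 and chr2:215312076-215312105 on the plus strand. The TYMS site is chr18:657603-657632 on the plus strand, where the octamer reads on the opposite strand as TTTCCCGC.
GART: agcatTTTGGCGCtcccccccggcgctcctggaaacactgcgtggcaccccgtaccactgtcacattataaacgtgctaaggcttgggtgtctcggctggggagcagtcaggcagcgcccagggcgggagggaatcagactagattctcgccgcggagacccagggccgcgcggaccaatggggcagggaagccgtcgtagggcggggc
ATIC site 1: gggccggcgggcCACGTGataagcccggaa
ATIC site 2: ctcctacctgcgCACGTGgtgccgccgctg
TYMS site: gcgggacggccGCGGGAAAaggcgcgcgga

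RefSeq windows were at hand for 36 of the 39 members. CACGTG was in a window of 8 of them (AK4, ATIC, DCK, DHODH, NME1, PAICS, PPAT and UCKL1). By window it was in 9 of the members' 57 (15.8%), against 7.26% of all 35116 windows, and PPAT and PAICS hold the same CACGTG. An E2F-type octamer was in those of 5 members (DCK, DUT, GART, PRPS2 and TYMS), in 8.77% of member windows against 3.31% of all. CCAAT was in those of 14 members, in 31.6% of member windows against 34.6% of all. AACAAAG, a SOX-type sequence, was in 0 members' windows and in 5.20% of all. The STAT6-type sequence of TTC and GAA with 4 bases between them was in those of NME1, PAICS and TK1. That was 5.26% of member windows against 6.44% of all. A member with several start sites has several windows, so its chance of holding a motif is higher than that of a single window. These are matches of letters within the windows, not evidence of binding.

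Library totals ranged from 16266282 to 25353113 expected counts. SOX4 itself had 798.7 and 265.9 CPM (reads scaled to a common library size with TMM factors) in the wild type. In the SOX4 knockout libraries it had 297.9 and 301.6, so its RNA level overlapped between the groups. These are RNA levels, and the study examined SOX4 protein in its knockout cells by western blotting. STAT6 was called lower in the knockout, at 32.0 and 13.2 CPM in Hep3B against 2.76 and 2.20 (log2 fold change -3.18, adjusted p = 0.0275 by edgeR). STAT6 had 42.5 and 31.4 CPM with scramble siRNA and 9.92 and 5.98 with STAT6 siRNA. Of 8 hepatocyte markers, 8 were tested and 3 (APOA1, TTR and FGB) passed the test as higher in the knockout libraries, where 5.89% of all genes were called. Of the 8 log2 fold changes 7 were above 0 and 1 was below, at -0.76. The summed level of the 8 markers was 15260 and 12004 CPM in Hep3B against 53955 and 29658 in the knockout. Of the fibroblast markers COL1A2 and DCN were not listed in the knockout table, and the sum of the others was 1.51 and 6.46 CPM against 95.1 and 61.1, of which LUM, called higher, held 85.5 and 54.2. Leukocyte markers summed to 41.0 and 29.5 CPM against 76.2 and 88.9, with CD3E not listed and 1 of the 3 markers tested. Of the endothelial markers VWF and CDH5 were not listed and the sum stayed at or below 0.740 CPM. Of these markers 0 were called in the siRNA table, where 0 of 13554 genes were called. There the log2 fold change was above 0 for 8 of the 8 hepatocyte markers, with a median of 0.37. The hepatocyte sum was 13443 and 17658 CPM with scramble and 12752 and 22163 with STAT6 siRNA. Whether these shifts had a part in the members' values was not tested. All libraries came from the Hep3B line. In bulk RNA, a change in the share of its cells that express a marker and a change in RNA per cell cannot be told apart.

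The members covered a wide range of levels. Per kilobase of transcript and with the 8 libraries scaled together, the highest were NME1 at 194.9 CPM per kilobase, NME4 at 126.0, APRT at 124.3 and ATIC at 115.3, as means of the 8 libraries. The order differed between conditions, and in Hep3B alone NME1 was at 101.0, followed by ATIC at 67.9, UCK2 at 67.1 and GART at 60.6, with NME4 at 52.4 and APRT at 37.0. The lowest over the 8 libraries were DHODH at 2.86, TK2 at 2.78 and SAMHD1 at 2.28. The folate-using genes lay in the upper part of the order, with TYMS at 77.1 and GART at 58.4 beside ATIC. PPAT, the amidotransferase that commits PRPP to purine synthesis, was at 9.14. It was the lowest of the 6 genes of the purine ring with scramble siRNA (5.14) and STAT6 siRNA (4.73), whereas in Hep3B and in the knockout PFAS was below it, at 4.73 against 19.1 and at 6.74 against 7.62. Within that order neighbours overlapped widely, since NME1 ranged from 35.2 to 487.0 and APRT from 33.4 to 321.2 over the libraries. The means come from tables deposited separately.

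No member passed the test in the SOX4 knockout comparison. At an adjusted p below 0.05 (edgeR's quasi-likelihood test, Benjamini-Hochberg over 14415 genes) 0 of 38 members were called, where 5.89% of all genes were. DESeq2 called 1, APRT. At an unadjusted p below 0.05 there were 3 members (APRT, HPRT1 and PPAT), against 26.0% of all genes. Both knockout libraries lay above both Hep3B libraries for 10 of 38 members, where 30.6% of all genes did, and below both for 8, where 27.4% did. The members were thus separated no more often than genes in general. The median log2 fold change was 0.06 over the members and 0.01 over all genes.

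**Figure D1:**
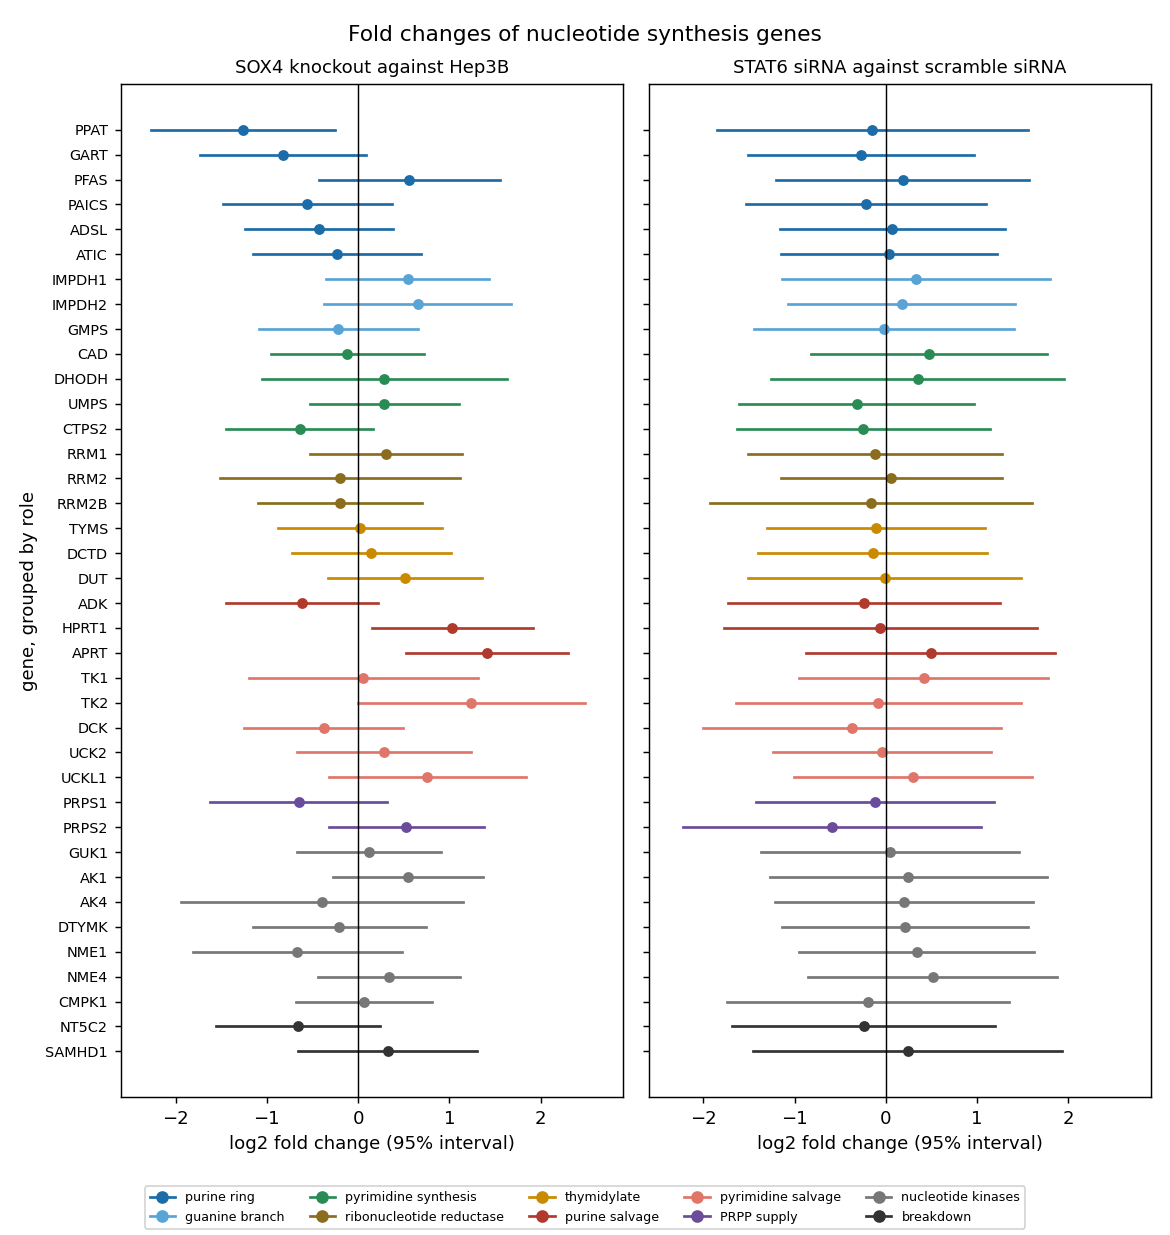
Log2 fold change (point) and its 95% interval (line) from edgeR's quasi-likelihood fit for the 38 members tested, grouped by role on the vertical axis, for SOX4 knockout against Hep3B (left) and STAT6 siRNA against scramble siRNA (right). In the knockout panel the intervals of PPAT, HPRT1 and APRT leave out 0, and in the siRNA panel all 38 intervals cover 0.

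Among the genes that build the purine ring, PPAT had the lowest fold change in the knockout. It had 51.0 and 100.1 CPM in Hep3B against 26.1 and 37.1 in the knockout, so both knockout libraries were below both Hep3B libraries, which themselves differed widely. Its log2 fold change was -1.26 (SE 0.44, adjusted p = 0.124 by edgeR). Without Hep3B library 1 it was -1.72 and passed the test, with an adjusted p of 0.0184, and without Hep3B library 2 it was -0.70. The transcript's GC content was 37.9%, the lowest of the members tested, and after correction for GC content and length (offsets in the fit) the change was -0.83.

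GART carries the enzymes of several steps in a single protein, among them the first transfer of a formyl group from folate. Its levels were 209.2 and 212.8 CPM in Hep3B against 86.2 and 152.7 in the knockout, again with no overlap, and close together in Hep3B. The log2 fold change was -0.82 (SE 0.39, adjusted p = 0.229 by edgeR), and it was -0.46 without knockout library 1 and -1.32 without knockout library 2. The gene lies on the minus strand of chromosome 21 from 33503931 to 33542892, where SON overlaps it on the opposite strand, and the sources used here do not say if reads were counted by strand. The full-length transcript held 86.9% and 89.3% of GART's estimated counts in Hep3B and 86.7% and 87.6% in the knockout. The short one, which ends at 33524010 and is known to encode the first enzyme alone, held 8.73% and 6.90% against 8.69% and 9.88%, so the shares overlapped between conditions.

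ATIC, the enzyme of the last ring steps and of the second formyl transfer, lies on chromosome 2 from 215311956 to 215349773. The levels were 165.6 and 159.1 CPM in Hep3B against 96.3 and 180.5 in the knockout. The Hep3B values fell between the knockout values, and the log2 fold change was -0.23 (SE 0.40, adjusted p = 0.753 by edgeR). TYMS, on chromosome 18 from 657604 to 673499 with TYMSOS and ENOSF1 overlapping on the opposite strand, behaved alike in its values. They were 99.9 and 93.5 CPM in Hep3B against 69.6 and 127.2 in the knockout, with a log2 fold change of 0.02 (SE 0.39, adjusted p = 0.975 by edgeR). Its sign changed with the scaling, to -0.0095 with median-of-ratios factors.

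PAICS and ADSL also had their lowest value in knockout library 1. PAICS, which carries a carboxylase and a synthetase, had 315.7 and 269.4 CPM in Hep3B against 147.4 and 249.99 in the knockout. ADSL, the lyase that acts in this route and again on the way to AMP, had 78.3 and 84.1 against 49.9 and 71.1. Both were separated, with log2 fold changes of -0.56 and -0.43 and adjusted p-values of 0.412 and 0.477 (edgeR). PFAS, the synthase between the GART steps, had 29.3 and 25.7 against 26.8 and 54.5, a log2 fold change of 0.56. Over the 6 ring genes 4 were separated as lower and 0 as higher, where 27.4% and 30.6% of all genes were, and the median log2 fold change was -0.49, beside 0.01 over all genes.

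The guanine branch had values in both directions. IMPDH2, a dehydrogenase that starts the route from IMP to GMP, lies on chromosome 3 from 49024329 to 49029442. The levels were 78.1 and 38.1 CPM in Hep3B against 73.7 and 109.1 in the knockout, which overlapped, with a log2 fold change of 0.65 (SE 0.44, adjusted p = 0.384 by edgeR). Its relative IMPDH1 had 18.9 and 24.4 against 25.4 and 37.8, without overlap, a log2 fold change of 0.55. GMPS, which finishes GMP, had 90.0 and 69.2 against 53.1 and 83.9, which overlapped, a log2 fold change of -0.22.

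APRT and HPRT1, both of purine salvage, had 2 of the 3 highest fold changes among the members. APRT, which joins adenine to PRPP, lies on chromosome 16 from 88809469 to 88811934. The levels were 32.5 and 38.3 CPM in Hep3B against 71.7 and 116.3 in the knockout. Its log2 fold change of 1.41 (SE 0.38, adjusted p = 0.0717 by edgeR) was the largest of the 38 members. DESeq2 gave 1.37 with an adjusted p of 0.0213. APRT also had the highest GC content of the members tested, 63.5%, and after that correction its change was 0.90.

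HPRT1, which joins hypoxanthine or guanine to PRPP, lies on the X chromosome from 134460145 to 134500668. The levels were 12.5 and 18.2 CPM in Hep3B against 31.2 and 31.8 in the knockout, where both libraries were nearly equal. The log2 fold change was 1.03 (SE 0.38, adjusted p = 0.140 by edgeR), and 1.35 with the offsets, its GC content being 40.6%. The HPRT1 family has processed pseudogenes, among which an estimate of counts can divide reads. ADK, the adenosine kinase, ran the other way, with 27.3 and 33.0 CPM in Hep3B against 18.1 and 21.3 in the knockout, and a log2 fold change of -0.61 (adjusted p = 0.321 by edgeR).

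The log2 ratio of HPRT1 to PPAT within a library, chosen after these values were seen and therefore given without a test, was -2.02 and -2.46 in Hep3B and 0.26 and -0.22 in the knockout. It was -0.35 and -0.80 with scramble siRNA and -0.62 and -0.56 with STAT6 siRNA. The Hep3B libraries alone stood apart, and both siRNA conditions were nearer to the knockout libraries than to Hep3B. The siRNA conditions are in the other table, so transfection, the table and any difference in library preparation cannot be told apart in this contrast.

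Nucleoside kinases of the pyrimidine salvage route did not move as 1 group. TK2, the mitochondrial thymidine kinase, on chromosome 16 from 66508003 to 66550412, had 10.9 and 4.17 CPM in Hep3B against 16.7 and 18.9 in the knockout. Its log2 fold change was 1.24 (SE 0.54, adjusted p = 0.193 by edgeR), and without Hep3B library 1 it was 2.03 and passed with an adjusted p of 0.0266. UCKL1, a uridine-cytidine kinase relative, on chromosome 20 from 63939829 to 63956447 with UCKL1-AS1 on the other strand, had 38.1 and 16.1 against 49.6 and 42.1. Its log2 fold change was 0.76 (SE 0.46, adjusted p = 0.342 by edgeR), and 1.45 with an adjusted p of 0.0442 without Hep3B library 1. In both genes the Hep3B libraries differed from each other by more than 1 on the log2 scale. DCK, the deoxycytidine kinase, on chromosome 4 from 70993548 to 71030912, had 28.8 and 44.8 against 27.9 and 28.8, so the groups nearly touched. Its log2 fold change of -0.38 (SE 0.38, adjusted p = 0.561 by edgeR) went to 0.00034 with the offsets. UCK2, a uridine-cytidine kinase, had 95.6 and 103.8 against 79.6 and 163.3.

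TK1, the cytosolic thymidine kinase made in S phase, had 43.8 and 90.5 CPM in Hep3B against 38.8 and 101.1 in the knockout. RRM2, the S-phase small subunit of ribonucleotide reductase, had 42.6 and 104.3 against 36.4 and 91.7. In both genes library 2 was more than 1 log2 unit above library 1 in each condition, while the conditions overlapped. The median of 20 cell cycle genes was likewise above in library 2, by 0.61 in Hep3B and 0.73 in the knockout. Between the conditions 0 of these 20 genes were called, where 5.89% of all genes were. Their median log2 fold change was -0.22, and 7 were separated as lower and 2 as higher, where 27.4% and 30.6% of all genes were. RRM1, the large subunit, had 87.1 and 117.4 against 105.9 and 147.6, and RRM2B, the small subunit induced by p53, had 24.6 and 34.8 against 30.7 and 21.0. Whether library 1 and library 2 differed in the share of cycling cells was not tested.

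**Figure D2:**
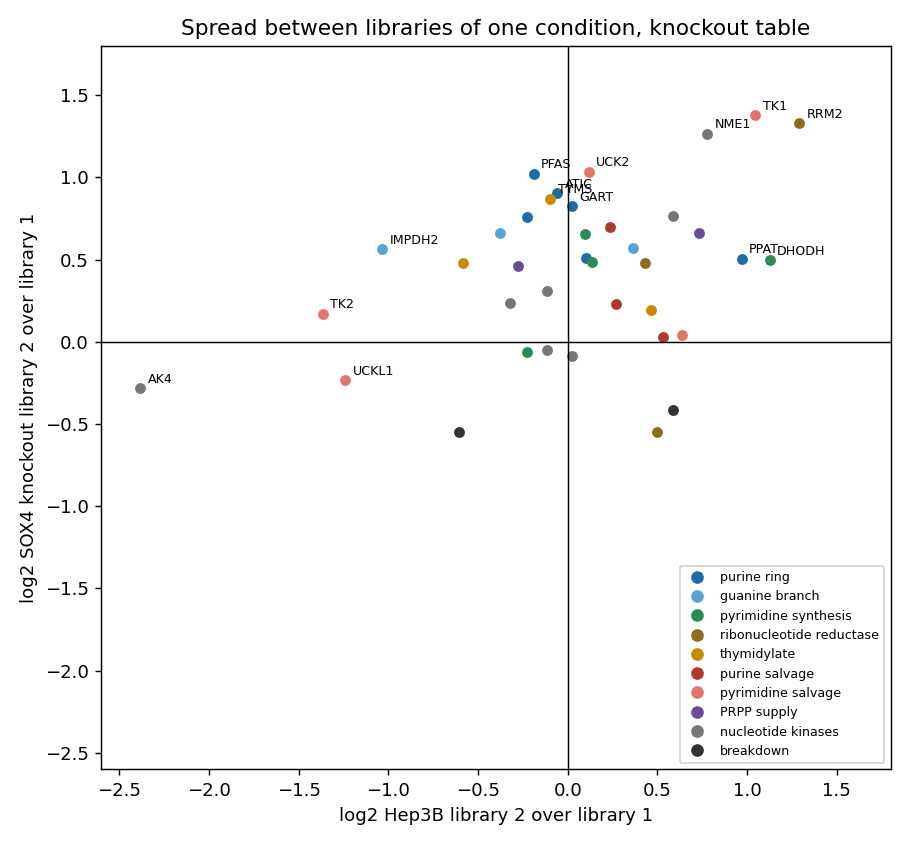
Log2 difference between library 2 and library 1 of Hep3B (horizontal) and of SOX4 knockout (vertical) for the 38 members tested, coloured by role. TK1, RRM2 and NME1 were higher in library 2 of both conditions, and AK4, TK2, UCKL1 and IMPDH2 were lower by more than 1 in Hep3B library 2.

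In pyrimidine synthesis the groups overlapped for CAD and were apart for CTPS2. CAD, the protein of the first steps, on chromosome 2 from 27217390 to 27243792, had 112.4 and 120.3 CPM in Hep3B against 83.1 and 131.2 in the knockout, a log2 fold change of -0.12 (SE 0.36, adjusted p = 0.863 by edgeR). UMPS, which makes UMP, on chromosome 3 from 124730366 to 124749272, had 46.1 and 50.7 against 49.2 and 68.9, a log2 fold change of 0.29 (SE 0.35, adjusted p = 0.648 by edgeR). DHODH, the mitochondrial dehydrogenase between them, was low, with 54 and 129 counts in Hep3B and 132 and 129 in the knockout. CTPS2, a CTP synthetase, had 38.5 and 32.9 CPM against 23.4 and 22.4 without overlap, with a log2 fold change of -0.64 and an adjusted p of 0.286 (edgeR).

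Of the thymidylate supply, DCTD, the dCMP deaminase, had 76.7 and 51.2 CPM in Hep3B against 59.0 and 82.4 in the knockout. DUT, which removes dUTP, had 22.6 and 31.2 against 35.8 and 41.1 without overlap, a log2 fold change of 0.51 (adjusted p = 0.404 by edgeR). DUT is known to give a nuclear and a mitochondrial form from different starts. The transcript that starts at 48332168 on chromosome 15 held 53.2% and 82.6% of its estimated counts in Hep3B and 40.6% and 63.9% in the knockout, so the shares overlapped.

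Of the PRPP synthetases, which feed both routes, PRPS1 and PRPS2 went opposite ways. PRPS1, on the X chromosome from 107628424 to 107651026, had 36.1 and 60.0 CPM in Hep3B against 23.7 and 37.5 in the knockout, which overlapped, with a log2 fold change of -0.65 (SE 0.42, adjusted p = 0.364 by edgeR). PRPS2, on the X chromosome from 12791355 to 12824227, had 28.0 and 23.2 against 31.1 and 42.7 without overlap, with a log2 fold change of 0.53 (SE 0.37, adjusted p = 0.399 by edgeR). Neither passed the test, and the difference between the paralogs was not tested.

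Among the kinases that raise monophosphates and diphosphates, NME1, on chromosome 17 from 51153559 to 51162089, had 75.4 and 129.3 CPM in Hep3B against 37.9 and 91.2 in the knockout. The groups overlapped, and the log2 fold change was -0.67 (SE 0.49, adjusted p = 0.430 by edgeR). NME1 has the close paralog NME2 next to it and an annotated read-through, so its counts are uncertain. NME4, the mitochondrial member, on chromosome 16 from 396755 to 400754, had 59.0 and 54.5 against 64.1 and 79.3 without overlap, a log2 fold change of 0.34 (SE 0.34, adjusted p = 0.562 by edgeR) that was -0.10 with the offsets. AK4, the adenylate kinase of the mitochondrial matrix, ran from 58.5 to 305.4 CPM within Hep3B alone, with 152.0 and 125.0 in the knockout. CMPK1, the UMP and CMP kinase, had the narrowest range of these kinases, with 116.1 and 117.9 against 125.9 and 118.8. AK1, the cytosolic adenylate kinase, had 18.8 and 17.4 against 26.9 and 26.1 without overlap, and the libraries of a condition lay close together. GUK1, for GMP, had 72.2 and 57.8 against 64.8 and 76.3, and DTYMK, for dTMP, had 51.3 and 77.0 against 41.2 and 70.1.

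Of the breakdown genes, NT5C2, the cytosolic nucleotidase for IMP and GMP, lies on chromosome 10 from 103088017 to 103193306 with CNNM2 overlapping on the opposite strand. The levels were 231.4 and 152.1 CPM in Hep3B against 144.9 and 98.9 in the knockout, without overlap, and a log2 fold change of -0.65 (SE 0.39, adjusted p = 0.325 by edgeR). SAMHD1, which cleaves deoxynucleoside triphosphates, had 11.0 and 16.5 against 19.7 and 14.7.

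By role, the 3 folate-using members had a median change of -0.23 on the log2 scale in the knockout, the 16 other synthesis genes 0.01 and the 8 salvage genes 0.52, beside 0.01 over all genes. Of the 19 synthesis genes 2 were separated as higher and 5 as lower, and of the 8 salvage genes 4 as higher and 2 as lower, where 30.6% of all genes were separated as higher and 27.4% as lower. Each median moved with the library: for the folate-using members it was -0.75 in knockout library 1 and 0.15 in library 2, relative to the mean of Hep3B. For salvage it was 0.34 and 0.74. With the GC and length offsets the salvage median was 0.27 and that of the other synthesis genes 0.14, and without knockout library 2 the salvage median was 0.25. The roles were set with earlier results of these data known and no test was made between them.

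Outside the members, 49 further nucleotide genes were listed, of which 41 were in the knockout table and 39 were tested. Of these, 3 were called higher and 0 lower, where 5.89% of all genes were called, and 15 had an unadjusted p below 0.05, against 26.0% of all genes. AMPD3, the AMP deaminase, had 4.54 and 2.85 CPM in Hep3B against 17.6 and 31.6 in the knockout (log2 fold change 2.73, adjusted p = 0.0302 by edgeR). GDA, the guanine deaminase, had 2.04 and 1.16 against 31.4 and 30.3 (log2 fold change 4.27, adjusted p = 0.0111 by edgeR). CDA, the cytidine deaminase, had 0 and 2 counts against 126 and 51 (adjusted p = 0.0267 by edgeR). Of 13 genes that supply the folate carbon, 11 were tested and 1 was called, MTHFD2, at 728.1 and 505.7 CPM in Hep3B against 114.1 and 153.4 in the knockout (log2 fold change -2.21, adjusted p = 0.0319 by edgeR).

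With STAT6 siRNA, no member passed the test either, and neither did STAT6 itself. The log2 fold change of STAT6 was -2.22 (SE 0.72, unadjusted p = 0.00834 by edgeR), and it was not called after adjustment. The test thus missed the target of the siRNA, and the absence of called members does not show that they were unchanged. Of 38 members 0 were called at an adjusted p below 0.05 by edgeR or by DESeq2, and of 13554 genes edgeR called 0.0%. At an unadjusted p below 0.05 there were 0 members, against 0.103% of all genes. Both STAT6 siRNA libraries lay above both scramble libraries for 0 members, where 2.74% of all genes did, and below both for 1, where 5.26% did. That 1 was UMPS, with 62.5 and 66.7 CPM against 41.8 and 61.5, a log2 fold change of -0.32 (SE 0.60). The adjusted p was 1.00 for every member named here (edgeR), and the median log2 fold change was -0.02 over the members and -0.03 over all genes.

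The folate-using genes had small log2 fold changes with wide intervals. GART had 196.2 and 253.8 CPM with scramble siRNA and 128.7 and 242.9 with STAT6 siRNA, a log2 fold change of -0.28 (95% interval -1.51 to 0.96). ATIC had 385.1 and 281.9 against 383.2 and 299.6, a log2 fold change of 0.03 (-1.15 to 1.22). TYMS had 170.0 and 145.8 against 129.4 and 163.9, a log2 fold change of -0.11 (-1.30 to 1.09). Changes of up to about 1 log2 unit in either direction thus lie within each interval. This fit, which had no block for the library number, cannot exclude them. The larger change of STAT6 was not called either.

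The widest values belonged to other members. PRPS2 had 15.5 and 26.3 CPM against 7.35 and 20.4, a log2 fold change of -0.59 (SE 0.76). DCK had 14.8 and 29.9 against 9.11 and 25.4, with -0.37 (SE 0.76). On the other side NME4 had 189.3 and 96.6 against 295.1 and 113.5, with 0.51 (SE 0.63), APRT had 158.0 and 82.9 against 244.9 and 93.9, with 0.49 (SE 0.64), and CAD had 276.6 and 186.3 against 450.5 and 191.5, with 0.47 (SE 0.60). In each of these 5 genes STAT6 siRNA library 1 held the extreme value and library 2 lay inside the range of the scramble libraries.

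Of the other members named for the knockout comparison, 8 had log2 fold changes between -0.24 (NT5C2) and 0.34 (NME1) with siRNA. PPAT had 9.38 and 25.6 CPM with scramble siRNA and 8.38 and 23.1 with STAT6 siRNA, and HPRT1 had 7.35 and 14.7 against 5.44 and 15.7. TK2 had 10.2 and 9.11 against 9.99 and 8.29, the narrowest range over the 4 libraries among the named members. UCKL1 had 86.3 and 54.5 against 110.6 and 62.8, and IMPDH2 118.9 and 84.9 against 140.2 and 89.8. NME1 had 293.6 and 167.5 against 394.6 and 187.7, PRPS1 64.1 and 46.3 against 53.4 and 48.2, and NT5C2 98.1 and 239.6 against 72.2 and 212.9. The members not named for this comparison ranged from -0.25 for CTPS2 to 0.41 for TK1. By role the median log2 fold change was -0.11 for the folate-using members, -0.02 for other synthesis and -0.05 for salvage, beside -0.03 over all genes. Of the 49 further nucleotide genes, 37 were tested and 0 called, as were 0 of 11 folate suppliers and 0 of 20 cell cycle genes (edgeR). Over all genes 0 of 13554 were called. MTHFD2 had 153.6 and 457.1 CPM with scramble siRNA and 80.5 and 333.5 with STAT6 siRNA, which overlapped, a log2 fold change of -0.56 (SE 0.72).

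In the siRNA table the libraries of a condition differed from each other along GC content. Between library 2 and library 1 the members' log2 differences fell with the GC content of the transcript, with a Spearman correlation of -0.90 over 38 members within scramble siRNA and -0.91 within STAT6 siRNA, and of -0.75 and -0.82 over 13405 genes. PPAT, at 37.9% GC, was higher in library 2 by 1.43 and 1.45, and APRT, at 63.5%, was lower by 0.93 and 1.38. The members' log2 fold changes also followed GC content, with a Spearman correlation of 0.67 in the siRNA comparison and 0.45 in the knockout comparison, beside 0.60 and 0.25 over all genes. These correlations are across genes, which share their libraries and are not independent replicates. With the offsets the siRNA values were 0.09 for APRT, 0.14 for NME4 and 0.17 for CAD.

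**Figure D3:**
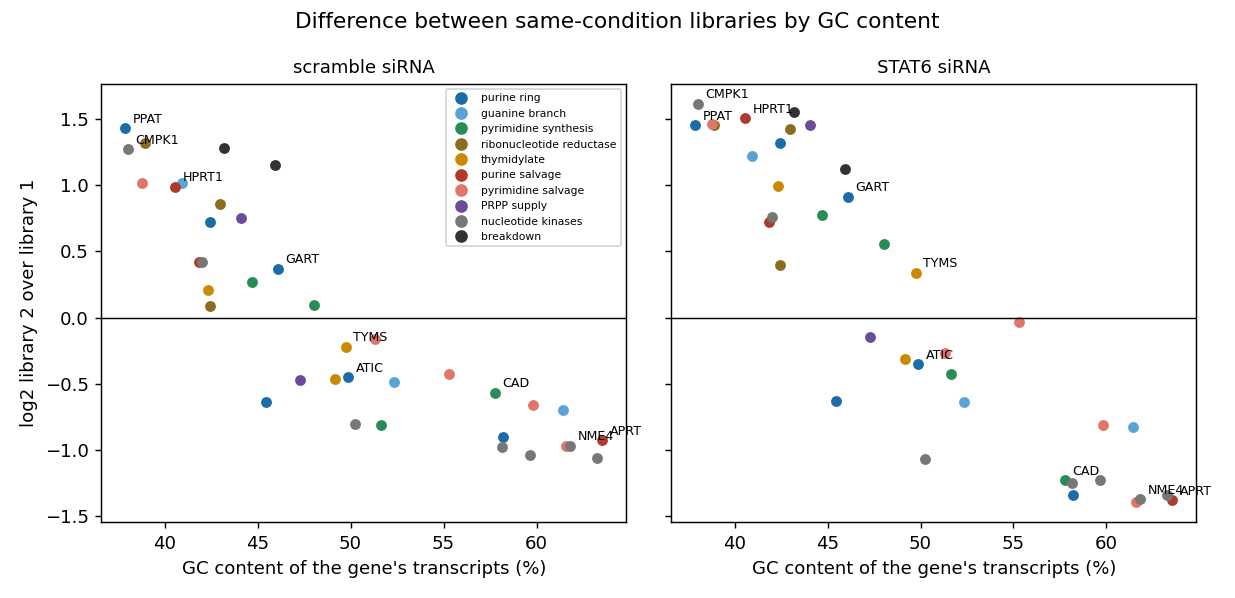
Log2 difference between library 2 and library 1 (vertical) against the GC content of the transcript in percent (horizontal) for 38 members, within scramble siRNA (left) and STAT6 siRNA (right), coloured by role. Members of low GC content such as PPAT, CMPK1 and HPRT1 were higher in library 2 and members of high GC content such as APRT and NME4 were lower, in both conditions.

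Whether the knockout and the siRNA moved a member differently was tested as a difference of both effects in a fit of all 8 libraries. It called 0 of 38 members at an adjusted p below 0.05 by edgeR, where 0.0769% of 14313 genes were called, and 0 at an unadjusted p below 0.05. DESeq2 called 0 members too. The smallest p was that of TK2, whose change was 1.22 log2 units higher in the knockout (SE 0.83, adjusted p = 0.963 by edgeR). PPAT was 1.21 lower (SE 0.92), HPRT1 1.00 higher (SE 0.87) and NME1 1.13 lower (SE 0.85). The larger knockout values of PPAT and HPRT1 are therefore not shown to differ from those of the siRNA.

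Wild-type Hep3B and scramble siRNA cells both carry SOX4 and STAT6, and members differed between them. Scaled together, 19 of 38 members were higher in both scramble libraries than in both Hep3B libraries and 4 were lower, where 27.6% and 28.9% of all genes were. APRT was 2.00 log2 units higher by the ratio of means, PFAS 1.82, TK1 1.66 and ATIC 1.27. Their GC contents were 63.5%, 58.2%, 61.6% and 49.9%. The same log2 ratio was -2.35 for AK4, -1.95 for RRM2B, -1.89 for PPAT and -0.96 for CMPK1, with GC contents of 42.0%, 38.9%, 37.9% and 38.1%. Whether GC content had a part in these differences was not tested. Transfection, the table and any difference in library preparation cannot be told apart in this contrast, so it is given without a test.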

How the data were processed

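RNA of 8 Hep3B libraries was measured by poly(A) RNA sequencing with a stranded kit. The authors deposited 2 tables of expected counts, that is, estimated, fractional and unnormalized counts for each RefSeq transcript, with 4 libraries each. Their processing notes name STAR, Partek and hg38, without versions, and the quantifier is not given in the sources used here. Every transcript summed to at least 10 counts over its table, and 0 columns were left without a library. Sums over the transcripts of a gene were rounded, so the planned count test was used on expected counts.

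Each table was fitted alone with edgeR 4.0.16 in R 4.3.3 (filterByExpr, TMM, glmQLFit, glmQLFTest), with Benjamini-Hochberg adjustment over all genes tested. The knockout table had a common dispersion of 0.145 and the siRNA table one of 0.243. Members were printed from these fits. Named with full statistics were GART, ATIC and TYMS, and, with a mean of at least 100 counts, the 5 largest changes each way in the knockout and the 3 each way with siRNA. This gave 17 members. Others named with a p were chosen after their values were seen.

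Other settings tried were DESeq2 1.42.0, scaling by upper quartile or by median of ratios, other filters, glmQLFit with legacy = FALSE and robust = TRUE, a block for the library number, offsets fitted on GC content and length (mgcv 1.9.3, GENCODE transcripts, values for 15908 of 16169 genes), all 8 libraries in 1 fit, and leaving out each library. Scalings of the counts of members without overlap were added after seeing the data. The steps were tested on simulated data. The members, roles and lists were chosen with earlier results of these data known.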

Additional observations from a re-analysis of the deposited data

How the results depend on the processing

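With 2 libraries a condition, single libraries set much of what is called. Leaving out each library in turn moved the genes called in the knockout comparison from 849 to between 21 (without SOX4 knockout library 2) and 2298 (without Hep3B library 1), with 73 without SOX4 knockout library 1 and 1322 without Hep3B library 2, and the members called to between 0 and 3. The difference of both effects had 11 genes called and between 0 and 127. In the siRNA comparison no such fit called a gene. The knockout comparison called 2160 genes by DESeq2, 518 with at least 10 counts in every library, 481 with offsets for GC content and length, 438 in a fit of all 8 libraries, and members only by DESeq2, 1. The difference called 5 genes with upper-quartile factors, 166 by DESeq2, 1 with at least 10 counts in every library and 57 with the offsets. The deviations of same-numbered libraries correlated by -0.08 in the knockout table and by 0.87 in the siRNA table, but 2 pairs cannot show a pairing and the labels give none. With the number as a replicate block 982 genes were called in the knockout comparison, 62 in the siRNA comparison and 97 for the difference, and 0 members in each. With both the replicate block and the offsets these were 57, 365 and 38 genes, with 1 member in the siRNA comparison, PRPS2 (log2 fold change -0.52, adjusted p = 0.0461 by edgeR). Members without overlap in the siRNA comparison were 2 with median-of-ratios factors and 0 with upper-quartile factors.

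Of 187 values of the named members in other settings of the knockout comparison, 8 changed sign. DCK was 0.00034 with the offsets and 0.016 with the block too, NME4 was -0.10 with either, and TYMS was -0.0095 with median-of-ratios factors, -0.0096 by DESeq2, -0.039 with the replicate block and -0.030 in the fit of all 8 libraries. Another 8 of 187 did in the siRNA comparison, where HPRT1 was 0.028 with the offsets and 0.024 with the block too, PPAT 0.080 and 0.076, PRPS1 0.018 and 0.017, and TK2 was 0.019 with median-of-ratios factors and 0.018 by DESeq2. The median of the salvage genes in the knockout moved from 0.52 to 0.27 with the offsets and 0.29 with the block too, and that of the other synthesis genes from 0.01 to 0.14 and 0.15. The median of the shared genes moved from 0.06 to -0.16 with the offsets and -0.10 with the block too, and that of breakdown genes from -0.16 to 0.33 without a filter, which added XDH.

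Over the fits that each left out 1 library, the knockout log2 fold change ranged from -0.79 to 0.16 for ATIC, from -0.52 to 0.18 for CAD, from -0.51 to 0.41 for TYMS, from -0.011 to 0.52 for UMPS, from -1.72 to -0.70 for PPAT, from 0.70 to 2.03 for TK2 and from 0.26 to 1.45 for UCKL1. It kept its sign but ranged from -1.32 to -0.46 for GART, from -1.47 to -0.15 for NME1, from -1.06 to -0.24 for PRPS1, from 0.25 to 0.75 for PRPS2, from 0.22 to 1.20 for IMPDH2, from -0.72 to -0.030 for DCK, from 0.14 to 0.49 for NME4 and from -0.95 to -0.38 for NT5C2. The medians ranged from -0.79 to 0.16 for the folate-using members, from -0.15 to 0.35 for other synthesis, from 0.25 to 0.68 for salvage, from -0.033 to 0.23 for the shared genes and from -0.42 to 0.65 for breakdown. The siRNA log2 fold change ranged from -0.36 to 1.11 for APRT, from -0.17 to 0.34 for ATIC, from -0.27 to 0.96 for CAD, from -1.30 to 0.23 for DCK, from -0.81 to 0.11 for GART, from -1.03 to 0.53 for HPRT1, from -0.18 to 0.51 for IMPDH2, from -0.30 to 0.87 for NME1, from -0.33 to 1.16 for NME4, from -1.23 to 0.54 for NT5C2, from -1.07 to 0.75 for PPAT, from -0.33 to 0.20 for PRPS1, from -0.22 to 0.067 for TK2, from -0.29 to 0.061 for TYMS and from -0.17 to 0.74 for UCKL1, and the median of the other synthesis genes from -0.38 to 0.11. In these fits the lone library is assumed to vary like the other group. The causes of these shifts were not tested. The fit with legacy = TRUE equals the one reported and was not run apart.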
